A study of Mus musculus with 2 samples.

Results

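The angiomotins *Amot*, *Amotl1* and *Amotl2* and 7 core genes of the Hippo pathway, *Yap1*, *Wwtr1*, *Tead1*, *Tead2*, *Lats1*, *Lats2* and *Nf2*, were described in single adult mouse neural stem/progenitor cells (NSPCs) that differed in the signal of PLIN2-GFP, a marker of lipid droplets. These 10 genes, listed by name, were all found among the 15046 genes with estimated counts. The rule for the list uses measured values without naming them. It was taken that the list was chosen by its high to low PLIN2-GFP values, so these values are given for the 10 genes as a description without a test. The cell cycle phases and the test of whether the high to low difference depended on cycling were taken not to have entered the choice. Their p-values hold only under that reading. The main comparison of phases had no term for the PLIN2-GFP category, whose shares differed between phases, so it is not free of the high to low difference. NSPCs had been isolated from the subventricular zone (SVZ) of male C57/Bl6 mice aged 6 to 8 weeks, grown as neurospheres for at least 5 passages with EGF and FGF-2, and made into 1 stable line with a retrovirus for PLIN2-GFP, a fusion of a lipid droplet coat protein with green fluorescent protein. From this proliferating, otherwise untreated line, the cells with the 25% highest and the 25% lowest GFP signal were sorted into single wells of 2 plates and sequenced by SORT-seq, a method that counts unique molecular identifiers (UMIs) at the 3' end of transcripts. Plate 1 held 95 low and 84 high and plate 2 held 72 low and 53 high PLIN2-GFP NSPCs, 304 cells in all. All cells carry the transgene, and nothing in these samples stands for an independent line. The only replicate error is how far a difference between groups of cells varied between the plates.

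In the Hippo pathway, a kinase chain led by MST kinases activates the LATS kinases, which phosphorylate the transcriptional co-activators YAP (*Yap1*) and TAZ (*Wwtr1*) and keep them out of the nucleus. YAP and TAZ have no DNA-binding domain of their own and act in the nucleus through TEAD transcription factors, for which *Ccn1* is a textbook target. Merlin (*Nf2*) is an upstream activator of the pathway at the cell cortex, and angiomotins are scaffold proteins of cell junctions and the actin cytoskeleton that bind YAP through short PPxY motifs. The pathway is best known for the control of organ size and of the proliferation of progenitors, neural progenitors included. It acts largely through phosphorylation and localization of proteins, which mRNA counts do not show.

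Promoter sequences from RefSeq on GRCm38.p6 are shown for *Amot* and *Yap1*, whose levels differed most between the PLIN2-GFP categories among the 8 members that passed the filter on low counts, and for the target *Ccn1*. They are the bases before the RefSeq start, 5' to 3' on the strand of the gene, in lower case. Capitals mark GGAATG, the core of the TEAD binding motif, or CATTCC, the same letters on the other strand. For *Amot*, the 233 bases at chrX:145487657-145487889 on the minus strand are shown, which lie within the annotated span of the gene and leave out 17 bases that belong to an annotated exon. The annotated 5' end of *Amot* is at 145505181, and the bases before that end were not searched. For *Yap1*, the 250 bases are those at chr9:8004597-8004846 on the minus strand, where 17 bases also belong to an exon of *Gm45494* on the other strand. For *Ccn1*, they are those at chr3:145649986-145650235 on the minus strand, with no annotated exon.
Amot: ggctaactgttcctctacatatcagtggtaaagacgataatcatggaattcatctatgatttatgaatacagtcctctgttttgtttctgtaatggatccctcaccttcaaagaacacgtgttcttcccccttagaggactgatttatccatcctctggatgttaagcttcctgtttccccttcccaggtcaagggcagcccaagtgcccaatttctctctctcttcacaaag
Yap1: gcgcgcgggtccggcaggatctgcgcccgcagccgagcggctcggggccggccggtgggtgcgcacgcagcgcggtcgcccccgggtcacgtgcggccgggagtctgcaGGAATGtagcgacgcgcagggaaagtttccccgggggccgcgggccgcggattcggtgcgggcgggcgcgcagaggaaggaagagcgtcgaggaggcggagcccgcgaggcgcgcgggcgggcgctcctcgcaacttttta
Ccn1: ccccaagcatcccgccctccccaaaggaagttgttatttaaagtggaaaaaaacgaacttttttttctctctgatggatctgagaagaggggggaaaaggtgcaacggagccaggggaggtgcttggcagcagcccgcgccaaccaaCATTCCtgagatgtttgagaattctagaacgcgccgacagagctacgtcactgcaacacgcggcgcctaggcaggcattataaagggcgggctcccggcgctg
The motif occurred in *Yap1* from 141 to 136 bases and in *Ccn1* from 103 to 98 bases before the start, and was not found in the *Amot* window. Of the 9 members with an entry in the promoter table, 3 held the motif on either strand within 250 bases before a start, *Yap1*, *Wwtr1* and *Amotl2*. A member with more than 1 entry was counted once, and 1 entry with the motif was enough. The window of *Amotl2* lies within the annotated span of the gene. Of all 32851 promoters, where each entry was counted singly, 12.6% held the motif. Of the 15 genes of a list of YAP and TAZ targets with an entry, 6 held the motif, *Ccn1* among them. The targets *F3* and *Igfbp3* did not hold it. These matches describe the letters of the windows only.

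High PLIN2-GFP NSPCs had more UMIs per cell, with a median of 7856 in low and 11709 in high cells of plate 1 and 11955 and 14729 on plate 2. On each plate, low and high cells lay in separate rows of wells, 8 rows each, so row and category cannot be told apart. The counts of the cells were summed per plate and category into 4 sums of 777882 to 1028912 UMIs, and levels are given as CPM, the counts of a gene scaled to a common library total with TMM factors. As UMIs are counted at the 3' end, each molecule counts once whatever the length of the transcript, and levels of different genes were compared as CPM without division by length. All 7 NSPC markers, such as *Vim* and *Sox2*, were detected, at a summed 6813 to 7131 CPM. The microglial markers were not analysed here, and 12 counts of endothelial or pericyte and 88 counts of ependymal markers were found in all. *Olig1* and *Olig2* of the oligodendrocyte lineage together reached 3373 to 3803 CPM. The 3 neuronal markers measured together reached 383 to 542 CPM and the 5 astrocytic markers 72.9 to 126 CPM. Their part in the results was not tested.

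The 10 genes spanned a wide range of levels. *Tead2* was highest with a mean of 249 ± 15.9 CPM over the 4 sums (SD), followed by *Amotl1* with 154 ± 15.8, *Tead1* with 147 ± 15.8 and *Wwtr1* with 137 ± 23.6 CPM. *Yap1* followed with 77.0 ± 22 CPM and *Lats1* with 68.8 ± 12.2 CPM, then *Nf2* with 34.8 ± 6.84 and *Amot* with 26.5 ± 14.8 CPM. *Amotl2* with 10.3 ± 9.20 CPM and *Lats2* with 6.01 ± 3.22 CPM were close to the limit of detection and did not pass the filter on low counts, so that 8 of the 10 genes were tested in each comparison below. In this order, the ranges over the 4 sums did not overlap between *Tead2* and *Amotl1*, between *Wwtr1* and *Yap1*, and between *Lats1* and *Nf2*. All other neighbours overlapped. Among the paralogues, *Amotl1* was thus the most abundant angiomotin, *Wwtr1* exceeded *Yap1*, and *Lats1* exceeded *Lats2* in every sum.

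**Figure D1:**
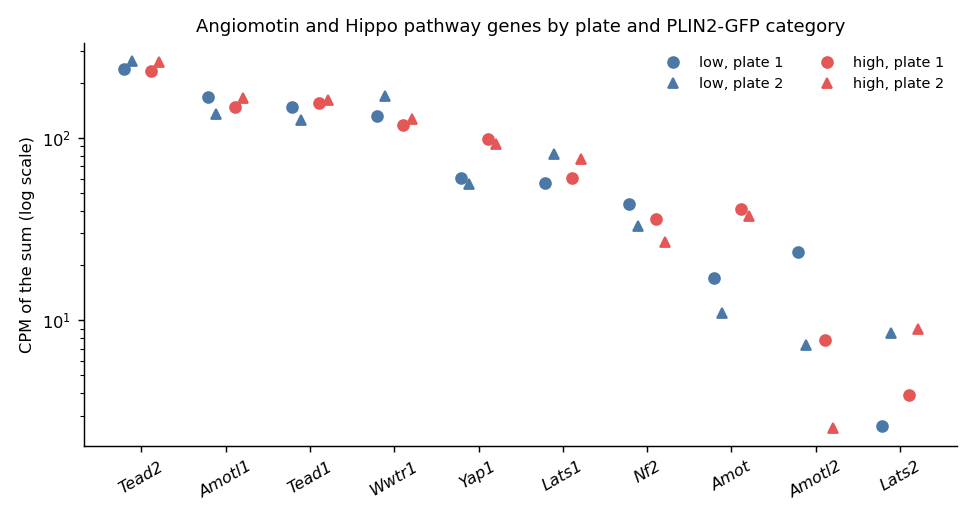
Level of each of the 10 genes (CPM of the sum, log scale) in the 4 sums, with circles for plate 1, triangles for plate 2, blue for low and red for high PLIN2-GFP NSPCs. *Amot*, *Yap1* and *Tead1* lay higher in both high sums than in both low sums. *Wwtr1* lay lower in both, while the points of *Tead2* and *Lats1* were intermixed.

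*Amot*, which encodes angiomotin, the founding member of its family (chromosome X of GRCm38, 145446425 to 145505181, minus strand), was sparse, with 93 UMIs in all, found in 69 of the 304 cells (22.7%) and with at most 4 UMIs in a cell. On plate 1, it had 13 counts in the low and 42 in the high sum, or 17.1 and 40.8 CPM. On plate 2, the counts were 9 and 29, or 10.9 and 37.3 CPM. Both high sums lay above both low sums. The means were 14.0 ± 4.36 CPM in low and 39.1 ± 2.50 CPM in high NSPCs (SD, n = 2 plates), which corresponds to a log2 fold change (log2FC) of 1.47 (standard error, SE, 0.35), or 2.77-fold. By plate, the log2FC was 1.15 on plate 1 and 1.58 on plate 2. These values were taken after a small count was added to each sum, which draws ratios of low counts toward 0. Divided further by phase, *Amot* lay between 31.5 and 51.0 CPM in the 6 high sums and between 11.2 and 27.4 CPM in the 6 low sums, the latter resting on 2 to 6 counts each.

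*Yap1*, the YAP co-activator (chromosome 9, 7931999 to 8004596, minus strand), also lay higher in both high sums. Its 265 UMIs were found in 51.0% of cells. It had 46 counts in each low sum, 102 in the high sum of plate 1 and 72 in that of plate 2. Scaled, these were 60.5 and 99.2 CPM on plate 1 and 55.9 and 92.6 CPM on plate 2, with no overlap between the categories. The log2FC was 0.72 (SE 0.21), close to the values of 0.69 and 0.71 of the single plates. The gene *Gm20416* overlaps *Yap1* on the other strand.

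The paralogues of these genes had other values. For *Amotl1* (chromosome 9, 14541966 to 14645056), the sums held 168 and 135 CPM in low and 149 and 166 CPM in high NSPCs of plates 1 and 2. The categories overlapped, and the log2FC of 0.05 (SE 0.15) had opposite signs on the plates, -0.18 and 0.30. *Amotl2* (chromosome 9, 102716672 to 102733418), a junctional angiomotin that is itself a target of YAP and TAZ, had 18 counts in the low and 8 in the high sum of plate 1, and 6 and 2 in those of plate 2. It thus had fewer counts in the high sum of each plate, at 23.7 against 7.78 CPM and 7.29 against 2.57 CPM, but with an estimated 34.8 UMIs in all no fold change was fitted. *Wwtr1*, which encodes TAZ (chromosome 3, 57455649 to 57575910), stood at 132 and 171 CPM in low and at 118 and 127 CPM in high NSPCs. Its high sums lay below its low sums, with a log2FC of -0.30 (SE 0.16).

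Of the TEAD factors, *Tead1* (chromosome 7, 112679318 to 112906807) had 147 and 125 CPM in low and 156 and 161 CPM in high NSPCs of plates 1 and 2, a log2FC of 0.21 (SE 0.16). The categories of *Tead1* did not overlap, with the high sums above the low sums. In thinned cells, however, its log2FC was -0.11. *Tead1* overlaps *2310014F06Rik* and *Gm44462*, and 88.5% of its values above 0 were whole UMIs. *Tead2* (chromosome 7, 45215753 to 45233644) had 238 and 265 CPM in low and 232 and 260 CPM in high NSPCs. Its values differed more between plates than between categories, with a log2FC of -0.03 (SE 0.13).

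Among the inhibitors of YAP and TAZ, the kinase gene *Lats1* (chromosome 10, 7681214 to 7716460) had 56.6 and 81.4 CPM in low and 60.3 and 77.2 CPM in high NSPCs. Its log2FC was 0.00 (SE 0.22), with a difference between plates that exceeded that between categories. *Lats2* (chromosome 14, 57689662 to 57758388) had 2 and 7 counts in low and 4 and 7 counts in high NSPCs. As it overlaps 3 other annotated genes, and 20.0% of its values above 0 were whole UMIs, its counts are uncertain. *Nf2* (chromosome 11, 4765845 to 4849536) had 43.4 and 32.8 CPM in low and 36.0 and 27.0 CPM in high NSPCs, a log2FC of -0.27 (SE 0.29) with overlapping categories.

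As the comparison of high with low PLIN2-GFP NSPCs was taken to have chosen the list, its calls are no evidence about the members and are given as a description only. Of the 8 members that passed the filter, *Amot* and *Yap1* were among the 2.14% of 8348 genes under an adjusted p of 0.1. Without the plate block and in thinned cells, 0 of the 8 passed, and DESeq2 gave neither gene an adjusted p. The median log2FC of the 8 genes was 0.02, and that of all genes tested was 0.00.

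**Figure D2:**
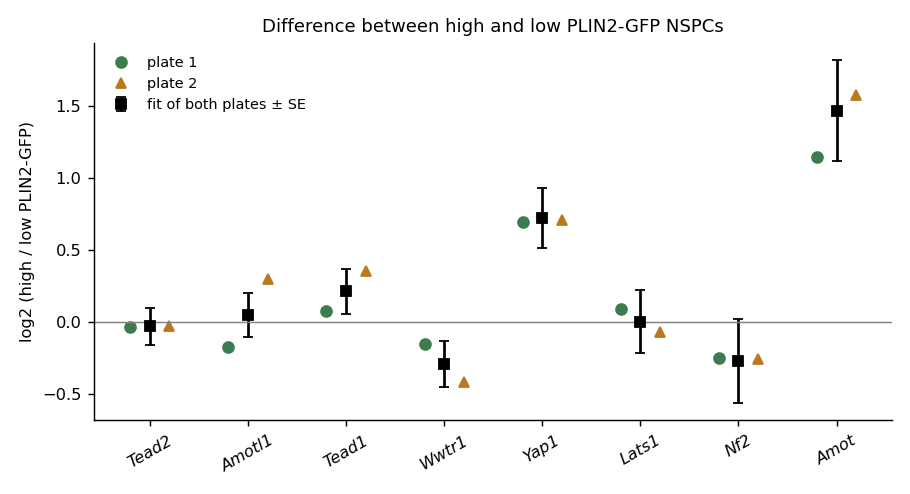
Log2 ratio of high to low PLIN2-GFP NSPCs for the 8 genes that passed the filter on low counts. Black squares with bars give the fit of both plates ± SE, green circles plate 1 and brown triangles plate 2, and *Amot* with 1.47 and *Yap1* with 0.72 are the highest.

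The share of cells with at least 1 UMI followed these levels. *Amot* was found in 11.6% of low cells (95% exact binomial interval 5.92% to 19.8%) and 36.9% of high cells (26.6% to 48.1%) of plate 1. On plate 2, it was found in 11.1% (4.92% to 20.7%) and 35.8% (23.1% to 50.2%). The mean difference was 25.0 ± 0.416 percentage points (SD, n = 2 plates). Cells with *Amot* were deep, with a median of 15734 UMIs against 9799 in cells without it. After random thinning of all cells to 5000 UMIs, for which 45 cells were too shallow, *Amot* had a UMI in 9.72% (low) and 15.1% (high) of the cells of plate 1 and in 3.12% and 16.0% of those of plate 2. This left 7 and 14 counts on plate 1 and 2 and 9 counts on plate 2, with a mean difference in share of 9.11 ± 5.32 points. The log2FC of the thinned sums was 1.39. The intervals cover counting error only.

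For *Yap1*, the shares of low and high cells were 37.9% and 61.9% (plate 1) and 43.1% and 67.9% (plate 2). Thinned, plate 1 had 26.4% and 38.4% and plate 2 had 23.4% and 32.0%, and the log2FC was 0.39. Of the 69 cells with *Amot*, 50 also had *Yap1*, against 155 of all 304 cells with *Yap1*. Within categories, 5 of 11 low and 26 of 31 high cells with *Amot* on plate 1 had *Yap1*, whereas plate 2 had 3 of 8 and 16 of 19 such cells. Cells with *Yap1* were also deeper than those without it, with medians of 13482 and 7856 UMIs, and the part of depth in this joint detection was not tested.

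**Figure D3:**
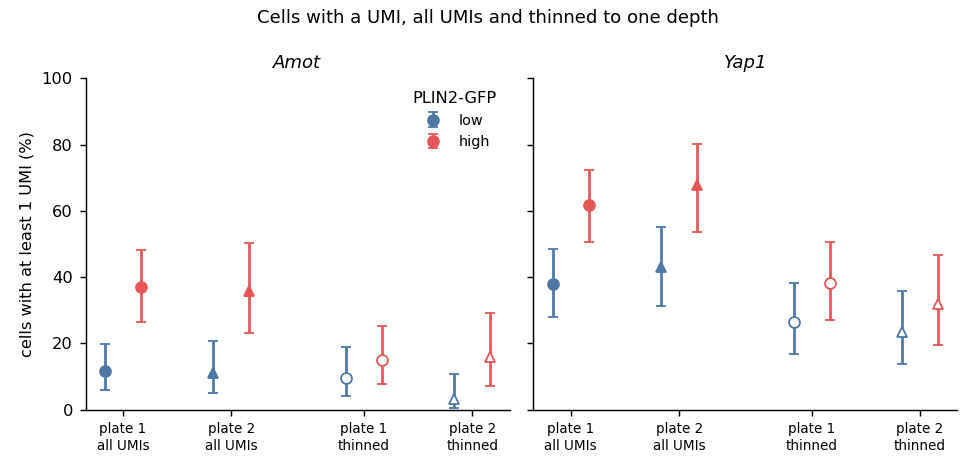
Share of cells with at least 1 UMI of *Amot* (left) and *Yap1* (right) per plate (circles plate 1, triangles plate 2) in low (blue) and high (red) PLIN2-GFP NSPCs, with 95% exact binomial intervals. Filled symbols use all UMIs and open symbols cells thinned to 5000 UMIs, where the mean difference for *Amot* is 9.11 points in place of 25.0.

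The cells were next compared by the cell cycle phase that the authors had assigned, with sums per plate over 132 G1, 77 S and 95 G2/M phase cells. Of these, 52, 38 and 47 were high PLIN2-GFP NSPCs, and the main fit of the phases had no term for the category. G1 cells were the shallowest, with a median of 9049 UMIs against 13560 for S and 11333 for G2/M cells, and their median mitochondrial percentage of 14.0 exceeded the 11.6 and 11.9 of the latter. The part of these differences in the results was not tested. Of the 8 members, 1 (*Yap1*) was called between S and G1 phase, where 12.7% of all 7650 genes tested were called. Between G2/M and G1 phase, 1 (*Amotl1*) was called, where 16.4% of all genes were. The members were thus not called more often than other genes in these counts. The phases were assigned in the authors' analysis of the same cells, so the shares over all genes may include genes that set the phases.

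*Amotl1* fell in G2/M phase. It had 196 and 183 CPM in G1, 172 and 158 CPM in S and 102 and 116 CPM in G2/M phase on plates 1 and 2. Both G2/M sums lay below all other sums, on 60 and 59 counts. The mean was 189 ± 9.62 CPM in G1 and 109 ± 9.89 CPM in G2/M phase (SD, n = 2 plates). The log2FC was -0.81 (SE 0.18, edgeR adjusted p = 0.00208), with -0.92 on plate 1 and -0.64 on plate 2. In S phase, *Amotl1* differed from G1 by -0.21 (SE 0.17, edgeR adjusted p = 0.513). In cells thinned to 5000 UMIs the difference between G2/M and G1 was -0.75 (edgeR adjusted p = 0.0701), and DESeq2 with the plate in the model gave -0.79 (adjusted p = 0.184). *Amotl1* was called in 8 of 9 alternatives with a test. Low G2/M levels were seen in both categories, with 82.1 and 116 CPM in low and 119 and 126 CPM in high cells in G2/M phase, against 160 to 237 CPM in the 4 sums of cells in G1. It shares its locus with *4930584E12Rik* and *Gm34263*.

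*Yap1* rose in S phase. It had 63.1 and 67.7 CPM in G1, 110 and 90.9 CPM in S and 86.7 and 62.9 CPM in G2/M phase on plates 1 and 2. Both S phase sums lay above all others. The log2FC between S and G1 phase was 0.64 (SE 0.23, edgeR adjusted p = 0.0926), with 0.77 on plate 1 and 0.41 on plate 2. The call was made in 3 of 9 alternatives with a test. With the category in the model, the log2FC was 0.55 and the edgeR adjusted p = 0.101, and in thinned cells 0.73 with an adjusted p = 0.338. In G2/M phase, *Yap1* differed from G1 by 0.22 (SE 0.24, edgeR adjusted p = 0.650).

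**Figure D4:**
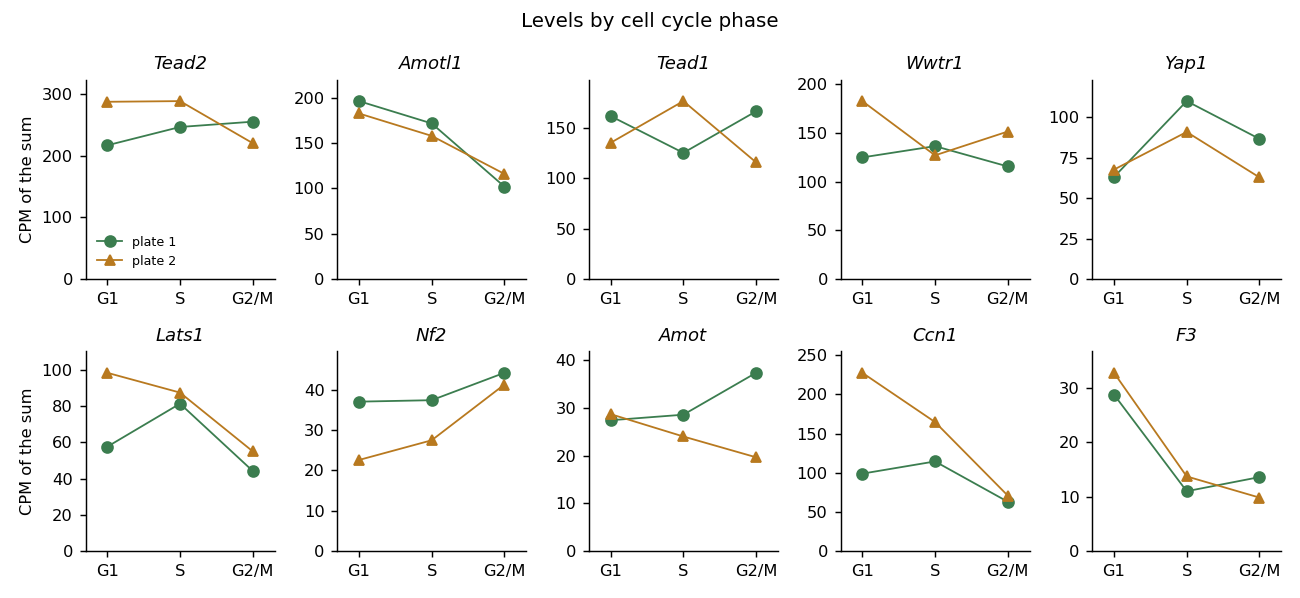
Level (CPM of the sum, axes from 0) of 8 of the genes and of the targets *Ccn1* and *F3* in G1, S and G2/M phase, with green circles for plate 1 and brown triangles for plate 2. *Amotl1*, *Ccn1* and *F3* were lower in G2/M than in G1 phase on both plates, and *Yap1* was highest in S phase.

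The other members did not pass the test between phases. *Amot* had 27.4 and 28.7 CPM in G1, 28.6 and 24.0 CPM in S and 37.4 and 19.7 CPM in G2/M phase. Its log2FCs from G1 were -0.05 in S (SE 0.39, edgeR adjusted p = 0.961) and 0.07 in G2/M phase (SE 0.38, edgeR adjusted p = 0.944), so that only large differences could have been detected. *Lats1* had 57.6 and 98.4 CPM in G1 and 44.2 and 55.0 CPM in G2/M phase, a log2FC of -0.61 (SE 0.26, edgeR adjusted p = 0.141), which passed in 1 of 8 alternatives. *Nf2* had 37.0 and 22.6 CPM in G1 and 44.2 and 41.3 CPM in G2/M phase, with 0.49 (SE 0.33, edgeR adjusted p = 0.404). *Tead1*, *Tead2* and *Wwtr1* had log2FCs from -0.22 to 0.11 in both contrasts, with adjusted p-values of 0.564 or more by edgeR, and the plates differed in sign in 4 of the 6 cases. *Lats2* had 0 counts in the G1 cells of plate 1, where 0 of 81 cells with a whole UMI allows a share of up to 3.70% of cells with a UMI, not of cells that express the gene, and 2 to 7 counts in the other 5 sums.

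**Figure D5:**
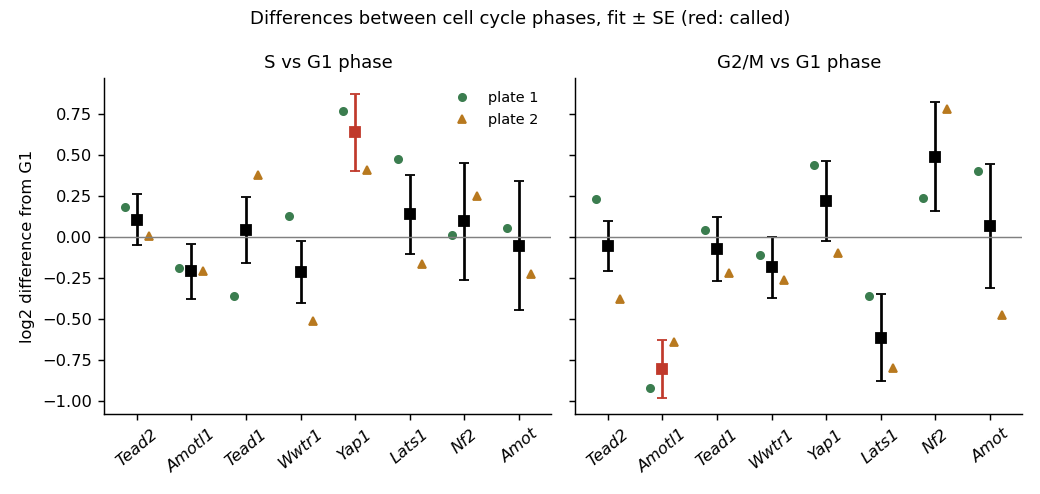
Log2 difference of S (left) and G2/M phase (right) from G1 phase for the 8 genes tested, as squares with bars (fit of both plates ± SE, red where called) beside plate 1 (circles) and plate 2 (triangles). *Yap1* with 0.64 in S and *Amotl1* with -0.81 in G2/M phase are called.

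Whether the difference between high and low PLIN2-GFP NSPCs depended on cycling was tested with the cells of each plate and category divided into G1 and cycling cells (S and G2/M). For *Amot*, the log2FC of high over low was 1.66 (SE 0.54) in G1 and 1.37 (SE 0.44) in cycling cells, and the interaction was -0.28 (SE 0.74, edgeR adjusted p = 0.992). For *Yap1*, it was 0.55 (SE 0.33) in G1 and 0.75 (SE 0.24) in cycling cells, with an interaction of 0.20 (SE 0.42, edgeR adjusted p = 0.992). The interaction was called for 0 of the 8 members, and for 0% of the 6935 genes tested by edgeR. At an unadjusted p under 0.05, 372 genes passed by edgeR, and DESeq2 and limma voom each called 0. The SE of the *Amot* interaction exceeded the size of the interaction itself, so that only a large dependence on cycling could have been detected.

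Other genes of the pathway and its targets were taken from lists of 48 and 22 genes. These lists were also chosen with earlier results of these data known, so their tests may not be independent of those results. Of the 38 pathway genes tested between high and low PLIN2-GFP NSPCs, 0 were called by edgeR or limma voom, and 1 (*Tnik*) passed an unadjusted p of 0.05 in edgeR, with a log2FC of -0.52 (SE 0.22, adjusted p = 0.293). Of the 12 target genes tested, 0 were called and 0 passed at an unadjusted p of 0.05. Of all 8348 genes tested, 2.14% were called by edgeR, and 918 passed an unadjusted p of 0.05. The median log2FCs of the tested pathway and target genes were -0.04 and 0.19, against 0.00 over all genes. The target *Ccn1*, which encodes a secreted matrix protein, had 84.2 and 132 CPM in low and 94.3 and 172 CPM in high NSPCs of plates 1 and 2, a log2FC of 0.29 (SE 0.17, edgeR adjusted p = 0.549). The MST kinase genes *Stk3* and *Stk4* stood at 17.8 ± 5.97 and 67.9 ± 9.17 CPM over the 4 sums (SD). Their adaptors *Sav1*, *Mob1a* and *Mob1b* stood at 13.2 ± 2.64, 52.8 ± 7.35 and 38.9 ± 9.04 CPM, *Tead3* at 5.30 ± 3.15 CPM and the TEAD cofactor *Vgll4* at 19.4 ± 5.78 CPM. *Ccn2*, *Ankrd1* and *Tead4* were not analysed here.

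In G2/M against G1 phase, 2 of 35 pathway genes and 3 of 9 target genes tested were called lower and 0 were called higher. Of all 7650 genes tested, 567 were called lower and 687 higher. The median log2FC of the tested target genes was -0.40, against -0.02 over all genes, of which 16.4% were called in either direction. *Ccn1* had 98.7 and 228 CPM in G1, 114 and 165 CPM in S and 62.9 and 70.7 CPM in G2/M phase, with both G2/M sums below all others. Its log2FC was -1.21 (SE 0.23, edgeR adjusted p = 0.000327), with -0.62 on plate 1 and -1.64 on plate 2, and it was called in all 9 alternatives with a test. *F3*, the tissue factor of blood coagulation, had 28.8 and 32.8 CPM in G1 and 13.6 and 9.83 CPM in G2/M phase, a log2FC of -1.35 (SE 0.47, edgeR adjusted p = 0.0589) on 63 counts over all cells. *F3* was not called in G2/M phase with no plate block (edgeR adjusted p = 0.119), by DESeq2 (adjusted p = 0.777) or at a threshold of 0.05. It was also the only gene of both lists called in S phase, at -1.28 (SE 0.47, edgeR adjusted p = 0.0954), a call that was made in 2 of 7 alternatives with a test. *Igfbp3*, an insulin-like growth factor binding protein, was lower in G2/M phase by a smaller amount, -0.39 (SE 0.14, edgeR adjusted p = 0.0625). It was not called with no plate block (edgeR adjusted p = 0.326) or in thinned cells (edgeR adjusted p = 0.557). DESeq2 (adjusted p = 0.664) and a threshold of 0.05 did not call it either.

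The pathway genes that fell in G2/M phase were *Tnik*, a kinase of the MAP4K family, and *Dchs1*, the cadherin that is the partner of FAT4. *Tnik* had 87.8 and 96.4 CPM in G1 and 56.1 and 33.4 CPM in G2/M phase (log2FC -1.005, SE 0.26, edgeR adjusted p = 0.0101). *Dchs1* had 50.7 and 49.2 CPM in G1 and 27.2 and 11.8 CPM in G2/M phase (log2FC -1.31, SE 0.36, edgeR adjusted p = 0.0140). DESeq2 called neither *Tnik* (adjusted p = 0.365) nor *Dchs1* (adjusted p = 0.398). The MST kinases and their adaptors, the genes of angiomotin turnover, tankyrases and ubiquitin ligases among them, and the STRIPAK phosphatase genes had 0 of 4, 0 of 6 and 0 of 7 tested genes called in this contrast, with medians of 0.18, 0.16 and 0.03.

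In the 2 clusters of the authors' per-cell table, 66.3% and 63.5% of the cells of cluster 0 and 26.4% and 21.0% of cluster 1 were high PLIN2-GFP NSPCs on plates 1 and 2. As the clusters were made from the counts of the same cells, their values are a description. *Amot* had 38.8 and 31.1 CPM in cluster 0 and 22 and 14.9 CPM in cluster 1, a mean log2 ratio of 0.90 ± 0.155 (SD, n = 2 plates). *Amotl2* went the other way, with 8 and 2 counts in cluster 0 and 18 and 6 counts in cluster 1. *Yap1* had a log2 ratio of 0.55 on plate 1 and 0.13 on plate 2. The mean ratios of the other 7 genes lay between -0.27 for *Tead2* and 0.21 for *Tead1*.

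The pattern most like that of *Amot* over the 12 sums of plate, category and phase was that of *Cbx1*, a heterochromatin protein gene (Pearson's r = 0.90 of log2 CPM, among 4831 genes with a mean of at least 10 counts). It was followed by *Gstt1* with 0.86, *Plin2* with 0.85, *Yipf5* with 0.85 and *Adam12* with 0.83. *Plin2* counts cannot separate the endogenous gene from the PLIN2-GFP construct. The median correlation over all these genes was 0.00, and the gene in the 100th place had 0.63. Among the members, *Yap1* came nearest with 0.71 and place 36, followed by *Tead1* with 0.51, whereas *Amotl1* had 0.13 and *Wwtr1* -0.34. The sums share the plates, the sorting and the depth of their cells, and *Amot* rests on 2 to 17 counts in each, so these values only order the genes.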

How the data were processed

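Single cells of 1 PLIN2-GFP line of adult mouse SVZ NSPCs were sequenced by SORT-seq on 2 plates. The authors assigned reads to GRCm38 with Salmon and alevin, filtered cells on mitochondrial percentage and doublets, and deposited expected (estimated) counts of UMIs per gene and cell, without normalization. Versions and the annotation release are not given in the sources used here. The deposited per-cell table gives the summed estimated counts, a count of detected genes, the mitochondrial percent, plate, category, phase and cluster. Of the 304 cells, 11 had over 20% mitochondrial counts, although the methods state that cells were kept below 20%. Columns of the count table carry no cell names and were matched to cells by equal totals and gene numbers (0 were unmatched). Of the values above 0, 87.1% were whole within 1e-06.

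Counts were summed per plate and category (4 sums), phase (6), category by G1 or cycling (8) and category by phase (12), and rounded. Sums were compared in edgeR 4.0.16 (R 4.3.3) with TMM factors, edgeR's low-count filter, a term for the plate (the replicate block) and quasi-likelihood tests, with p-values adjusted by Benjamini-Hochberg over all 8348, 7650 or 6935 genes tested and called under 0.1. Standard errors (SE) were taken as |log2FC| over the root of the F statistic. Log2FCs of single plates were taken from CPM with a small count added to each sum, which draws ratios of low counts toward 0. With 1 to 3 residual degrees of freedom, the tests lean on the spread of all genes. Plates are samples of the same line. With the plate in the model, p-values measure how far a difference varied between plates, not how far levels did. This variation may be technical. The plate pairs the sums, as those with one number come from the same plate. Alternatives were no plate block, other normalizations, no low-count filter, thinned or equally weighted cells, DESeq2 1.42.0, limma voom 3.58.1, subsets of cells, a threshold of 0.05 and each plate left out.

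The members and lists were chosen with earlier results of these data known. Named are all members, called genes of the pathway and target lists (at most 6 by smallest p per comparison), 11 further pathway genes or targets with their levels, and the 5 genes most like *Amot*. Coordinates are from GENCODE M21 on GRCm38, promoters from RefSeq (GRCm38.p6). The result of 1 further marker gene is not reported here.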

Additional observations from a re-analysis of the deposited data

How the results depend on the processing

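Leaving out the plate block, thinning the cells and DESeq2 each lowered the counts of calls over all genes between categories and between phases. Of the listed genes, the 2 called between high and low PLIN2-GFP NSPCs became 0 with no replicate block, in thinned cells, by DESeq2 (which gave neither an adjusted p), in cells in G1 phase and in cells with under 10% mitochondrial counts (where *Amot* did not pass the filter). All genes called numbered 179 with the block and 1, 14, 11, 8 and 1 under these settings. Between S and G1 phase, 2 listed genes became 0 with no replicate block, in thinned cells, by DESeq2, with 12 sums that include the category and at 0.05, and 1 with library size only, no filter on low counts or limma voom. All genes called fell from 973 to 443 with no replicate block, 352 in thinned cells and 207 by DESeq2. Between G2/M and G1 phase, 6 listed genes became 3 in thinned cells and 1 by DESeq2, and all calls fell from 1254 to 657 with no replicate block, 547 in thinned cells and 317 by DESeq2. The split of the 179 calls into 74 higher and 105 lower became 153 and 84 with library size only. Between S and G1 phase, 576 higher and 397 lower became 682 and 242. Interactions over all genes numbered 2 with library size only or DESeq2 size factors, 1 in thinned cells and 8 with no filter, and 0 of the members in each. The difference in the share of cells with *Amot* fell to 9.11 points and its cluster ratio to 0.65 in thinned cells. For the share, the single plates gave 24.7 and 25.3 points, and for the cluster ratio 0.79 and 1.01. Among the phase and interaction fits with a test, 5 differences that were not called turned in sign, namely *Amot* in S (0.0237 with library size only) and G2/M phase (-0.0866 with 12 sums), *Tead1* in S (-0.0366) and *Tead2* in G2/M phase (0.0528) and the *Yap1* interaction (-0.35) in thinned cells. Between categories, signs also turned for *Nf2* (0.25), *Tead1* (-0.11) and *Tead2* (0.03) in thinned cells, where *Lats1* had -0.31, for *Tead2* with library size only (0.04), equal weights (0.08) and under 10% mitochondrial counts (0.29), for *Wwtr1* in the latter (0.02) and for *Amotl1* in G1 cells (-0.05). The cause of these changes was not tested. The log2 fold change of *Amot* between categories ranged from 1.15 to 1.76 over its 11 alternatives, and that of *Amotl1* between G2/M and G1 phase from -0.92 to -0.64 over 12. The ends at 1.15, -0.92 and -0.64 are values of single plates with a small count added to each sum. Leaving out a plate or weighting cells equally gave values without calls. Thinned cells held too few *Amot* counts to pass the filter in the phase and interaction fits.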
